A study of Mus musculus with 6 samples.

Results

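The Gimap genes encode GTPases of immunity-associated proteins, a family of GTP-binding proteins of lymphocytes. Its 8 mouse members were examined here, out of 26332 genes in the count table, in double negative 3 (DN3) thymocytes of wild-type mice and of mice labelled as knock-outs of Tcf7, which encodes the transcription factor TCF-1. The members were taken by name, and the family was chosen from results already seen in these data, namely higher levels in the libraries labelled knock-out. The knockout against wild-type values below are therefore a description of the family and support nothing by themselves.

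The study compared 6 libraries of DN3 cells from the thymus of C57BL/6 mice, each from an individual mouse. The wild-type (WT) group had 4 mice, WT 1 to 3 female and WT 4 male. The Tcf7 knock-out (KO) group had 2 mice, KO 1 male and KO 2 female. All cells came from 1 sorting scheme, which kept CD25+ cells that lacked CD44, CD3, TCRbeta, CD8, NK1.1 and binding of the CD1d tetramer. The labels give neither the ages of the mice nor which part of Tcf7 was removed. The libraries were amplified from total RNA with a SMART-Seq v4 kit.

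GIMAP proteins share a GTP-binding domain, and several sit on the membranes of lysosomes, mitochondria, the endoplasmic reticulum or the Golgi apparatus. The family is best known for the survival and quiescence of lymphocytes. Mice that lack Gimap1 or functional Gimap5 lose mature T and B cells, and GIMAP proteins have been linked to the BCL2 family of cell death regulators and to autophagy. Several Gimap genes are known to change in level as thymocytes mature. At the DN3 stage, thymocytes are immature and rearrange the gene of their receptor β chain.

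The 8 genes lie side by side on chromosome 6, between 48647186 and 48770851 of GRCm38.p6, a span of 123.7 kb. Their order is Gimap8, Gimap9, Gimap4, Gimap6, Gimap7, Gimap1, Gimap5 and Gimap3. Gimap6 and Gimap3 are read from the minus strand and the other 6 genes from the plus strand. By Entrez identifier, start and end they are Gimap8 (243374, 48647186 to 48660875), Gimap9 (317758, 48676121 to 48679116), Gimap4 (107526, 48684578 to 48692062), Gimap6 (231931, 48701583 to 48708244), Gimap7 (231932, 48718621 to 48724636), Gimap1 (16205, 48739047 to 48743795), Gimap5 (317757, 48746197 to 48754200) and Gimap3 (83408, 48764464 to 48770851). No other gene of the count table with a matched symbol lies inside this span. The GENCODE annotation places an antisense transcript, Gimap1os, over Gimap1, and a read-through model, Gm28053, over Gimap7, Gimap1 and Gimap5. Neither has a row of its own in the table, and the kit does not mark strand, so reads of Gimap1 and of Gimap1os cannot be told apart. Close relatives can also share reads. Among all stretches of 75 bases in the annotated transcripts, 3.32% of those of Gimap3 occurred unchanged in Gimap5, and no other pair of members had a stretch in common.

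Promoters of the members are shown because the genes lie together and were all higher in both KO libraries than in WT, and TCF-1 binds DNA. The RefSeq promoter table (GRCm38.p6) held 9 windows for the 8 genes, each from 250 bases before to 50 bases after an annotated start, with 2 for Gimap8. Both strands were searched for CTTTGA (TCF and LEF factors), TGTGGT (RUNX factors), CACACCC (KLF factors), CAGCTG (E proteins) and CGGAAG (ETS factors). Any match is in capitals, including matches on the reverse strand, and no matches overlapped in the windows printed. Gimap4 (chr6:48684328-48684627, plus strand) and Gimap7 (chr6:48718371-48718670, plus strand) are printed for their TCF/LEF match. Gimap6 (chr6:48708195-48708494, minus strand) is printed for its 2 ETS matches and Gimap3 (chr6:48770802-48771101, minus strand) because none of the 5 motifs occurred there.
Gimap4: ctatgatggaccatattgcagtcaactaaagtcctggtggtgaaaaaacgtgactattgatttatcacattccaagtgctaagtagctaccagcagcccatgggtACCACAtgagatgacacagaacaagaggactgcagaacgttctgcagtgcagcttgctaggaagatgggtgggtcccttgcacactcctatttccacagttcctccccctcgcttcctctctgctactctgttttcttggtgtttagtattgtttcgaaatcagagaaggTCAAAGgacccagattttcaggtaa
Gimap7: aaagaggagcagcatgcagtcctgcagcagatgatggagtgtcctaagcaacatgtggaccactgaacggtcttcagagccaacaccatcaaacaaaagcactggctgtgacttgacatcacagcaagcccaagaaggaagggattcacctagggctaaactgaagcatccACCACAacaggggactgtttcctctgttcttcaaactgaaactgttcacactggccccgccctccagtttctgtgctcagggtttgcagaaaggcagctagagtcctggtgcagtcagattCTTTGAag
Gimap6: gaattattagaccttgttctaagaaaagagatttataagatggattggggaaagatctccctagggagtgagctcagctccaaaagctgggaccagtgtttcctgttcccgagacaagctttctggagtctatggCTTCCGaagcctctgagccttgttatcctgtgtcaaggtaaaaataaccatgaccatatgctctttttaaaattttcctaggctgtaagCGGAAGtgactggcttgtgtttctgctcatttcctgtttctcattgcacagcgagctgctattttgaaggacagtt
Gimap3: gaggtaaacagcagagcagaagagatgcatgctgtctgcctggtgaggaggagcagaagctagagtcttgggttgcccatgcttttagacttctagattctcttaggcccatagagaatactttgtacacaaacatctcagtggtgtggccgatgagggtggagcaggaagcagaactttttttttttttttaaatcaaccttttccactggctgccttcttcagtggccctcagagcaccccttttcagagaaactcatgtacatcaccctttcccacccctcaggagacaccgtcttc

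The TCF/LEF letters occurred in 2 of the 9 member windows, those of Gimap4 and Gimap7, and in 16.0% of all 32851 windows of that length. Both matches lay after the annotated start, at position 26 in Gimap4 (as TCAAAG, on the reverse strand) and at position 43 in Gimap7. The RUNX letters occurred in the windows of Gimap4, Gimap7 and Gimap1, against 16.8% of all windows. The ETS letters occurred in 4 windows, of Gimap8, Gimap6 and Gimap1, against 16.9%. The 2 windows of Gimap8 overlap and hold the same ETS site. The KLF and E-protein letters occurred in no member window, against 8.0% and 16.3%. These are matches of letters, and no binding was measured. No match was found in the windows of Gimap3, Gimap5 and Gimap9, which says only that these letters are not in these windows.

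The labels were checked on the targeted gene. Tcf7 stood at 2326, 2270, 2266 and 2094 CPM, that is counts scaled to library size, in the WT libraries, in order, and at 1133 in KO 1 and 1022 in KO 2 (log2 -1.05, SE 0.09, edgeR adjusted p = 0.00127). The KO libraries lay below every WT library, and the fitted KO level was 0.483 of the WT level, so transcripts counted to Tcf7 remained in both. KO below means the libraries so labelled. Total counts were 23711513 to 41666797 in the WT libraries, 19589938 in KO 1 and 13673860 in KO 2, so that 3 counts correspond to 0.0724 to 0.125 CPM in WT mice, to 0.154 in KO 1 and to 0.224 in KO 2. The DN3 markers Il2ra, Ptcra, Notch1, Notch3, Rag1, Rag2, Dntt and Cd3e were all above 1 CPM in each library. Their summed level was 10606 to 11301 CPM in WT mice, 7114 in KO 1 and 7909 in KO 2.

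Markers of other cells were not equal between the KO libraries. B-cell markers summed to 257 to 287 CPM in WT mice, 812 in KO 1 and 1167 in KO 2. In KO 1 most of this sum came from Ighm and Blk, and Cd79b lay below every WT library there. Ms4a1 and Pax5, which define B cells, had no count in the WT libraries or KO 1 and reached 36.0 and 7.54 CPM in KO 2. Of the 10 B-cell markers, 3 had at least 1 CPM on average in WT, 5 in KO 1 and all 10 in KO 2. Mature αβ T-cell markers summed to 949 to 999 CPM in WT mice, 1499 in KO 1 and 3229 in KO 2. In WT mice nearly all of this sum came from Trbc2 and from Cd3e, which is also on the DN3 list. Cd3e was at 567 to 601 CPM in WT mice and lower in KO, at 536 and 514 CPM. Cd8a was at 0.703 to 3.72 CPM in WT mice, 66.9 in KO 1 and 858 in KO 2. Cd4 was at 0.738 to 2.61 CPM in WT mice, 0 in KO 1 and 12.8 in KO 2. Dendritic-cell markers summed to 1.73 to 2.22 CPM in WT mice, 2.00 in KO 1 and 468 in KO 2. The sum in KO 2 came nearly all from H2-Aa and Cd74, which B cells also express. Siglech had no count in any library, and Itgax, Flt3 and Xcr1 were under 1 CPM in every library. Of these, Flt3 and Xcr1 were highest in KO 2 (0.373 and 0.448 CPM), and Itgax was lower in both KO libraries than in WT. NK and innate lymphoid markers summed to 258 to 302 CPM in WT mice, 1384 in KO 1 and 1459.7 in KO 2, mostly from Gzma. Nkg7 went the other way, from 54.0 to 70.0 CPM in WT mice to 51.2 in KO 1 and 48.7 in KO 2. Of the 8 NK and innate lymphoid markers, 2 had at least 1 CPM on average in WT, 2 in KO 1 and 4 in KO 2. Summed γδ T-cell markers were at 1495 to 1561, 1761 and 1702 CPM in the same order, but single markers differed in opposite directions. Cd163l1 rose from between 35.4 and 49.9 CPM in WT mice to 629.98 and 569.8 CPM in KO (log2 3.84, edgeR adjusted p = 4.97e-05) and Sox13 from between 78.2 and 93.5 CPM to 264 and 150.2 CPM (log2 1.16, edgeR adjusted p = 0.0192). Trgc1 fell from between 409 and 424 CPM to 227 and 201 CPM (log2 -0.98, edgeR adjusted p = 0.00076). Trdc, not called, was at 302 to 341 CPM in WT mice, 22.004 in KO 1 and 298 in KO 2. Trgc2, also not called, was at 657 to 696, 617 and 465 CPM, and Trdv4 was at 0.0418 to 0.268, 0.358 and 18.4 CPM. In the same order, summed myeloid markers were at 18.4 to 20.5, 5.94 and 8.36 CPM and erythroid markers at 3.09 to 12.1, 1.94 and 26.4. Among the myeloid markers Lyz2 fell, from 16.8 to 18.4 CPM in WT mice to 0.154 and 1.19 in KO. Itgam rose, from 0.492 to 0.752 CPM to 4.81 and 6.87. Summed endothelial markers were at 119.5 to 125, 145 and 138 CPM, mostly from Pecam1, with Cdh5 under 1 CPM in every library. Thymic epithelial markers were at 147 to 158, 46.1 and 53.1 CPM, nearly all from Epcam, while Foxn1 and Krt5 had no count in any library. B cells and T cells of other kinds are known to express Gimap genes, and the part that such cells take in the values below was not tested. In sorted bulk RNA, more cells of a type and more RNA per cell cannot be told apart.

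All 8 Gimap genes passed the filter on low counts, and in all 8 both KO libraries lay above the 4 WT libraries, as they did in 22.9% of the 13294 genes tested. edgeR's quasi-likelihood test called 6 of the 8 higher in KO and none lower, at an adjusted p under 0.05, beside 14.1% of all genes called higher, 16.5% called lower and 30.7% called either way. Gimap1 and Gimap7 were the 2 members not called, both close to the threshold (edgeR adjusted p = 0.0551 and 0.057). Their log2 fold changes, 0.54 and 1.80, were no smaller than the 0.50 of Gimap9, which was called (edgeR adjusted p = 0.0335). The median log2 fold change was 1.63 over the members and -0.04 over all genes tested. Since this contrast chose the family, nothing is read from these shares. The number called fell to 2 without WT 1 and to 3 without WT 2 or WT 3. Calls over all genes fell likewise, from 30.7% to 12.6%, 12.9% and 13.2% without WT 1, WT 2 and WT 3. With sex in the model, the fits without WT 4 and without KO 1 both come down to KO 2 against WT 1 to 3. The fit without KO 2 comes down to KO 1 against WT 4. No spread between KO mice enters these fits, and their calls cannot be read as those of the main fit. No member was lower in KO in any fit with 1 library left out.

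Gimap4 and Gimap3 were close to absent from WT cells. Gimap4, whose protein has been tied to the death of T cells, stood at 0.942, 1.21, 1.15 and 0.492 CPM in WT mice 1 to 4, which were 39, 29, 30 and 14 counts. It stood at 176 CPM in KO 1 and 209 CPM in KO 2, from 3442 and 2795 counts. The KO libraries were thus alike and both far above WT, and the fitted difference was 226-fold (log2 7.82, SE 0.19). WT 4, the male, had the lowest WT level.

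Gimap3, a close relative of Gimap5 whose alleles affect the segregation of mitochondrial DNA in mice, was the lowest member in every library per length. It had 22, 8, 9 and 9 counts in WT 1 to 4, or 0.531, 0.334, 0.345 and 0.316 CPM. KO 1 had 32 counts (1.64 CPM) and KO 2 had 579 (43.2 CPM). Both lay above WT, but KO 2 was at 26.4-fold the level of KO 1, and the fitted log2 difference of 5.66 (SE 0.85) lies between log2 ratios of 2.10 for KO 1 and 6.82 for KO 2. Without WT 1 its call was lost, at a log2 difference of 5.52.

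**Figure D1:**
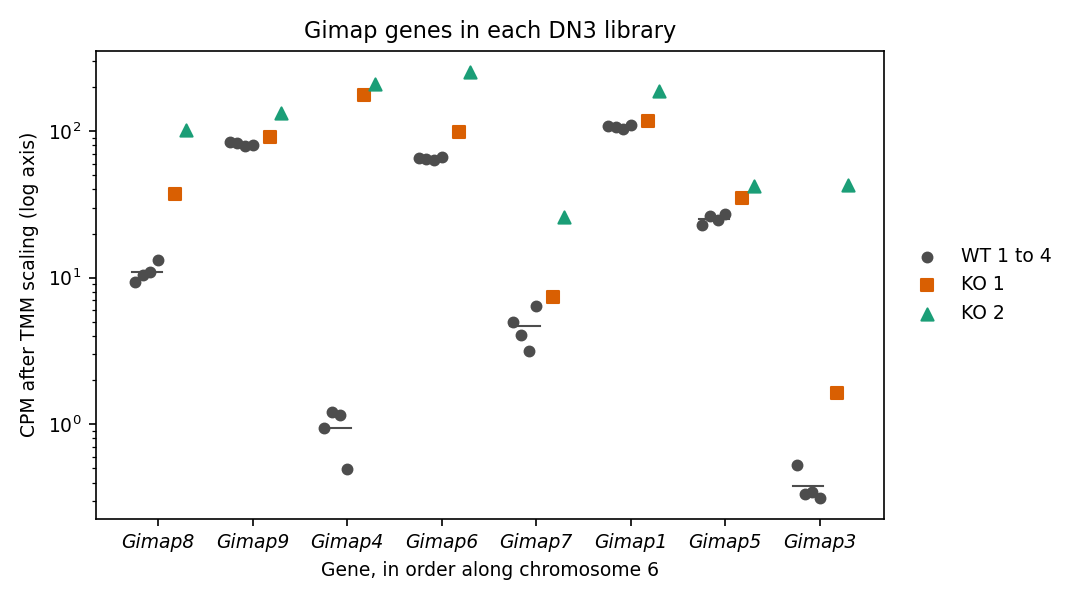
Level of each Gimap gene (CPM after TMM scaling, log axis) in the 4 WT libraries (circles, with a line at their mean), KO 1 (square) and KO 2 (triangle), with genes in order along chromosome 6. Both KO libraries lie above all WT libraries for each gene, narrowly for KO 1 at Gimap9, Gimap7 and Gimap1 and by more than 100-fold in both at Gimap4 only.

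Gimap1 and Gimap5, known for their part in lymphocyte survival, were already expressed in WT cells and differed less than Gimap4 and Gimap3. Gimap1, needed for the maintenance of mature T and B cells, stood at 108, 106, 104 and 110.0 CPM in WT mice 1 to 4, at 118 CPM in KO 1 and at 188 CPM in KO 2. KO 1 was at 1.10-fold and KO 2 at 1.75-fold the WT mean, and the fitted log2 difference was 0.54 (SE 0.16). Gimap5, whose loss leads to lymphopenia in mice and rats, stood at 22.7, 26.4, 24.8 and 27.3 CPM in WT mice and at 34.8 CPM in KO 1 and 42.2 in KO 2. Both KO libraries were above WT, KO 1 at 1.37-fold and KO 2 at 1.67-fold the WT mean, and the fitted log2 difference was 0.61 (SE 0.13). The call for Gimap5 was lost when WT 1, WT 2 or WT 3 was left out.

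Gimap6, which binds a GABARAP-type autophagy protein, stood at 66.0, 64.2, 63.6 and 66.3 CPM in WT mice 1 to 4, at 98.6 CPM in KO 1 and at 253 CPM in KO 2. The WT libraries were nearly equal, KO 1 was at 1.52-fold and KO 2 at 3.89-fold their mean, and the fitted log2 difference was 1.45 (SE 0.29). Gimap7, a GTPase that can act on a related GIMAP protein, stood at 4.998, 4.09, 3.18 and 6.40 CPM in WT mice, 7.37 in KO 1 and 26.0 in KO 2. KO 1 lay close above the highest WT library, WT 4, while KO 2 was at 5.58-fold the WT mean (fitted log2 difference 1.80, SE 0.54). The Gimap6 call was lost without WT 1, WT 2 or WT 3 at log2 differences of 1.39 to 1.42. Leaving out KO 1 or WT 4 sets KO 2 against WT 1 to 3 in either case. The log2 differences were then 2.64 to 2.66 for Gimap7 and 0.82 to 0.84 for Gimap1.

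Gimap8, the largest member and one that carries several GTP-binding domains, stood at 9.34, 10.5, 11.002 and 13.1 CPM in WT mice 1 to 4. It was at 37.2 CPM in KO 1 and 102 CPM in KO 2. Both KO libraries stood well clear of WT, at 3.38-fold and 9.27-fold the WT mean, and the fitted log2 difference was 2.65 (SE 0.38). Gimap9 stood at 84.1, 82.4, 79.2 and 80.2 CPM in WT mice, 91.9 in KO 1 and 133 in KO 2. This was the smallest difference of the family (log2 0.50, SE 0.12), with KO 1 at 1.13-fold and KO 2 at 1.64-fold the WT mean. Its call too was lost without WT 1, WT 2 or WT 3.

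KO 2 was higher than KO 1 for all 8 members. The ratio of KO 2 to KO 1 was 1.18 for Gimap4 and 1.21 for Gimap5, 1.45 for Gimap9 and 1.59 for Gimap1, 2.57 for Gimap6, 2.74 for Gimap8 and 3.53 for Gimap7, and 26.4 for Gimap3. Gimap4 was thus the member with the largest difference from WT and the smallest difference between the KO mice. In KO 1 alone, Gimap1 and Gimap9 were within 1.13-fold of the WT mean. A term for the interaction of genotype and sex, which here compares KO 1 less WT 4 with KO 2 less WT 1 to 3, passed at an adjusted p under 0.05 for all 8 members. It passed for 54.7% of all genes as well, and with 1 KO mouse of each sex it cannot be told apart from a difference between the 2 mice. The summed B-cell and mature T-cell markers given above were also higher in KO 2 than in KO 1, though not every marker of either list was.

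**Figure D2:**
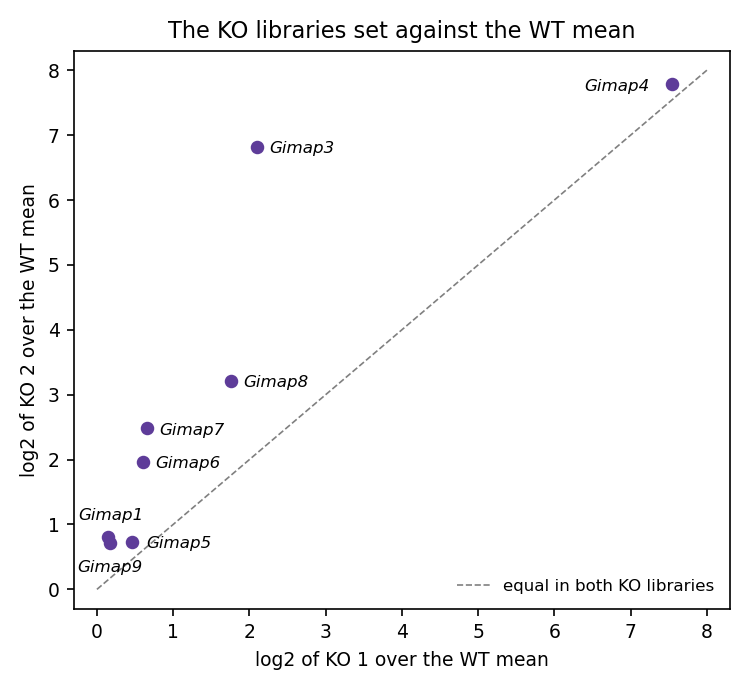
log2 ratio of KO 1 to the WT mean (horizontal axis) and of KO 2 to the WT mean (vertical axis), 1 point per Gimap gene, with a dashed line where both KO libraries are equal. All 8 points lie above the line, Gimap4 close to it (7.54 and 7.78) and Gimap3 farthest from it (2.10 and 6.82).

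Levels of different genes can be compared only per length, as CPM divided by gene length in kilobases (RPKM). In WT cells Gimap1 was highest at 71.2 RPKM ± 1.70 (SD, n = 4), followed by Gimap9 at 58.9 ± 1.596, Gimap6 at 40.3 ± 0.827 and Gimap5 at 13.0 ± 1.03. Gimap7 (3.68 ± 1.08) and Gimap8 (2.97 ± 0.430) came next, and their ranges over the 4 mice overlapped. Gimap4 (0.524 ± 0.180) and Gimap3 (0.178 ± 0.0468) were lowest, and their ranges did not overlap, the lowest Gimap4 value being 0.272 RPKM and the highest Gimap3 value 0.248. All other neighbours in this order had WT ranges well apart. In KO 1 the order began with Gimap4 at 97.3 RPKM, then Gimap1 at 78.4, Gimap9 at 66.4 and Gimap6 at 61.1. In KO 2 it began with Gimap6 at 157 RPKM, then Gimap1 at 125, Gimap4 at 115 and Gimap9 at 96.4, and Gimap3 was last at 20.1.

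The family's summed level and its make-up both differed between the WT and KO libraries. The summed level of the 8 members was 191 RPKM ± 4.38 (SD, n = 4) in WT, 338 in KO 1 and 583 in KO 2. Without Gimap4 it was 190.3 RPKM ± 4.52 in WT, 241 in KO 1 and 468 in KO 2, or 1.26-fold and 2.46-fold the WT mean. Gimap4 made up 0.139% to 0.352% of the sum in WT mice, 28.8% in KO 1 and 19.8% in KO 2. Gimap1 made up 37.1% to 37.4% in WT mice, against 23.2% in KO 1 and 21.4% in KO 2, although its own level was no lower there. Gimap3 contributed 0.226% in KO 1 and 3.45% in KO 2.

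**Figure D3:**
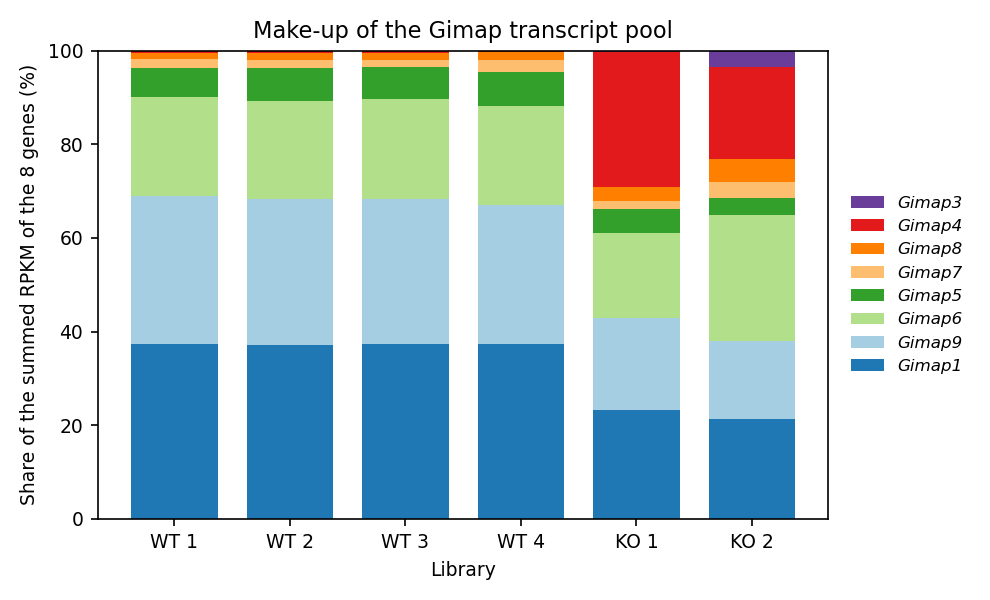
Share of the summed RPKM of the 8 Gimap genes (vertical axis, %) held by each gene in each library (bars from 0 to 100). The 4 WT bars are nearly alike and consist mostly of Gimap1, Gimap9 and Gimap6, while Gimap4 holds 28.8% in KO 1 and 19.8% in KO 2.

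Genes beside the cluster were examined with the same fit, over the 22 genes of the table that lie within 500 kb of its ends. Of these, 13 passed the filter. Their median log2 fold change was -0.20, against -0.04 over all genes. 5 were called lower and 1 higher, beside 16.5% and 14.1% of all genes. Both KO libraries lay below WT for 6 of the 13 and above WT for 2, beside 28.6% and 22.9% of all genes.

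On the Gimap8 side, the nearest tested gene, AI854703, ended 13.5 kb away and was at 6.36 to 7.39 CPM in WT mice and at 8.49 CPM in KO 1 and 6.27 in KO 2. The WT and KO ranges overlapped. Zfp775, a zinc finger gene 25.6 kb away, was at 27.6 to 30.3 CPM in WT mice and 21.7 and 23.2 in KO (log2 -0.38, SE 0.10, edgeR adjusted p = 0.0394). Repin1, a zinc finger protein gene 48.1 kb away, fell from 128 to 156 CPM in WT mice to 85.6 and 55.7 CPM in KO (log2 -1.07, SE 0.10, edgeR adjusted p = 0.00218). Gm5111, 56.6 kb away, fell from 40.7 to 51.3 CPM in WT mice to 4.40 and 7.99 CPM in KO (log2 -2.84, SE 0.29, edgeR adjusted p = 0.00247).

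On the Gimap3 side, the pair Tmem176b and Tmem176a, genes of membrane-spanning proteins that overlap each other 63.0 and 70.6 kb from the cluster, were both called lower. They lie on opposite strands, so reads of their overlap cannot be told apart. Tmem176b was at 75.3, 79.1, 76.6 and 82.7 CPM in WT mice 1 to 4 and at 41.1 and 32.2 CPM in KO (log2 -1.15, SE 0.09, edgeR adjusted p = 0.0012). Tmem176a was at 39.5, 38.9, 36.6 and 37.7 CPM in WT mice and at 26.5 and 16.8 CPM in KO (log2 -0.90, SE 0.18, edgeR adjusted p = 0.018). Their KO levels were below every WT library, the opposite side from the Gimap genes. The call of Tmem176a was lost without WT 1, WT 2 or WT 3 (adjusted p = 0.0638, 0.0648 and 0.0649), as was that of Zfp775 (0.141, 0.136 and 0.11), so 3 genes were called lower in those fits.

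The 1 gene called higher was Igf2bp3, an RNA-binding protein gene of fetal blood cells, 314.4 kb away, which overlaps Malsu1 on the other strand. It was at 42.9, 39.8, 40.9 and 10.5 CPM in WT mice 1 to 4 and at 193 and 97.8 CPM in KO (log2 2.49, SE 0.70, edgeR adjusted p = 0.0482). WT 4 stood far below the other WT libraries, and the call was lost without WT 1, WT 2 or WT 3 (adjusted p = 0.105, 0.113 and 0.11). Krba1 (log2 0.07), Zfp467 (-0.97), Zfp862-ps (0.13), Lrrc61 (-0.12), Malsu1 (-0.19) and Tra2a (-0.20) were not called. The other 9 genes of the region, among them Sspo, Rarres2, Aoc1 and Gpnmb, had too few counts for a test.

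**Figure D4:**
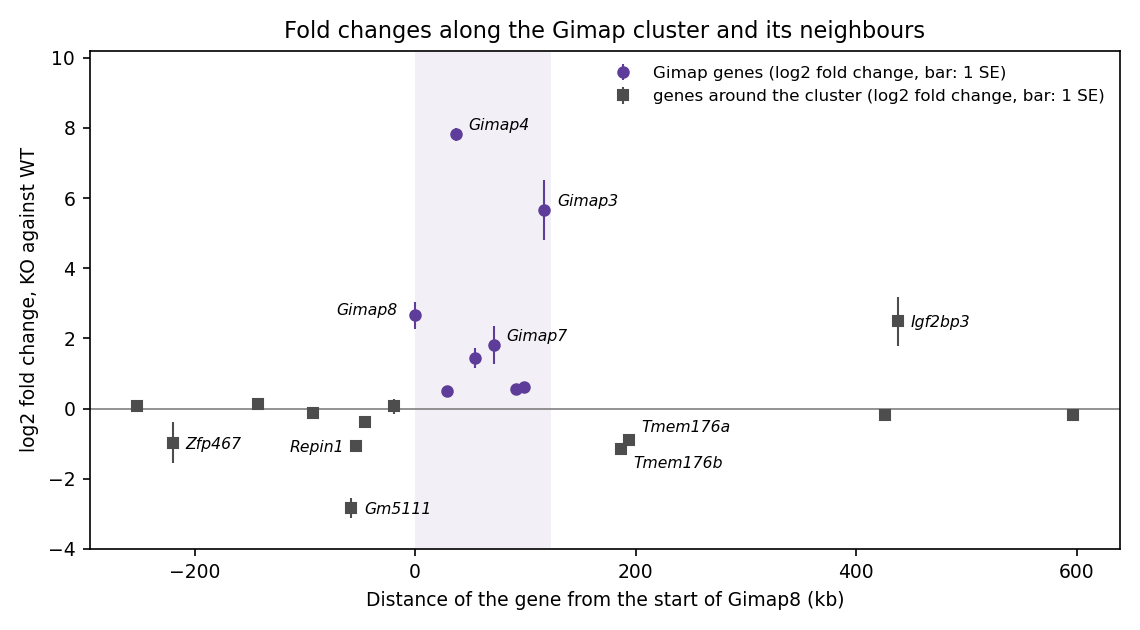
log2 fold change of KO against WT (vertical axis, bars 1 SE) for the 8 Gimap genes (circles) and the 13 tested genes around them (squares), by distance from the start of Gimap8 in kb, with the Gimap cluster shaded. The Gimap genes lie above 0 and the genes on both sides of the cluster near or below it, apart from Igf2bp3 at 2.49.

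Genes whose proteins have been linked to GIMAP proteins were described from a list of 14 BCL2-family, autophagy and kinase genes. All 14 were tested, 2 were called higher and 3 lower, beside 14.1% and 16.5% of all genes, with a median log2 fold change of 0.03. Bcl2, the survival gene whose product GIMAP5 has been reported to bind, fell from 155 CPM ± 6.78 (SD, n = 4) to 70.6 and 79.7 CPM (log2 -1.01, SE 0.07, edgeR adjusted p = 0.000679). Bcl2l1, which encodes the survival protein BCL-XL, was at 22.5 to 23.4 CPM in WT mice and 28.7 and 31.4 in KO (log2 0.40, edgeR adjusted p = 0.0277). Bcl2l11, the gene of the death-inducing protein BIM, was at 44.4 to 58.5 CPM in WT mice, 60.7 in KO 1 and 131 in KO 2 (log2 0.91, edgeR adjusted p = 0.0145). Gabarapl1, of the family to which GIMAP6 binds, was at 34.3 to 42.7 CPM in WT mice, 26.3 in KO 1 and 5.97 in KO 2 (log2 -1.69, edgeR adjusted p = 0.0433). Mtor, a kinase gene of cell growth, was the other gene called lower (log2 -0.32, edgeR adjusted p = 0.021) and is named after its value was seen. Without WT 1, WT 2 or WT 3 no gene of the list was called higher and 1, Bcl2, was called lower. Over all genes, 6.67% to 6.81% were called higher and 5.94% to 6.43% lower in those fits. The fits without WT 4, KO 1 or KO 2 each rest on 1 KO mouse, so their calls are left out here.

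Gimap genes are known to be high in naive T cells, so 18 genes of naive or recirculating T cells were set beside them. 11 were called higher and 1 lower, beside 14.1% and 16.5% of all genes, with a median log2 fold change of 0.99. The list was written with some of its values known from earlier results, so its count is no independent evidence of a direction. S1pr1, the receptor for leaving the thymus, stood at 0.0966 to 0.345 CPM in WT mice, 21.7 in KO 1 and 84.0 in KO 2, and like Gimap3 it was higher in KO 2. Klf2, the factor that activates S1pr1, stood at 2.46 to 3.76 CPM in WT mice, 194 in KO 1 and 239 in KO 2, and like Gimap4 it was nearly equal in both KO mice. Itgb7, an integrin of gut homing, stood at 4.88 to 5.93 CPM in WT mice and at 103 and 230 CPM in KO. Ccr7, a receptor for homing to lymph nodes, stood at 1.30 to 2.27 CPM in WT mice and at 19.8 and 22.02 CPM in KO. The edgeR adjusted p of these 4 genes was 0.000319, 5.03e-05, 0.000269 and 0.00114. Il7r, the interleukin-7 receptor gene, was the 1 called lower (105 to 112 CPM in WT mice, 69.0 and 61.4 in KO). It was chosen after its values were seen. Without WT 1, WT 2 or WT 3, 9 genes of the list were called higher and 1 lower. Of all genes, 6.67% to 6.81% were called higher and 5.94% to 6.43% lower in those fits. The fit without KO 2 sets KO 1 alone against WT 4, and its calls are left out here.

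A list of 19 interferon-inducible GTPases, the other large GTPase families of immune cells, was set beside the Gimap genes. Of 18 tested, 3 were called higher and 4 lower, beside 14.1% and 16.5% of all genes, and the median log2 fold change was 0.11. These counts are near the shares over all genes, and 11 were not called. Gbp8 fell from 179 to 227 CPM in WT mice to 28.8 and 42.5 CPM in KO (log2 -2.46, edgeR adjusted p = 0.00165), Gbp6 from 152 to 164 CPM to 34.1 and 68.8 CPM (log2 -1.59, edgeR adjusted p = 0.0102), and Gbp11 from 8.02 to 12.7 CPM to 1.94 and 1.12 CPM (log2 -2.86, edgeR adjusted p = 0.00121). Mx2 rose from 1.55 to 2.11 CPM to 8.55 and 9.85 CPM (log2 2.35, edgeR adjusted p = 0.00222). Irgm2 (log2 1.12), Igtp (0.93) and Gbp4 (-1.10) were the other 3 called, and are named after their values were seen. When WT 1, WT 2 or WT 3 was left out, 1 gene was called higher, beside 6.67% to 6.81% of all genes. The fits without KO 1, KO 2 or WT 4 each rest on 1 KO mouse, so their calls are left out here.

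**Figure D5:**
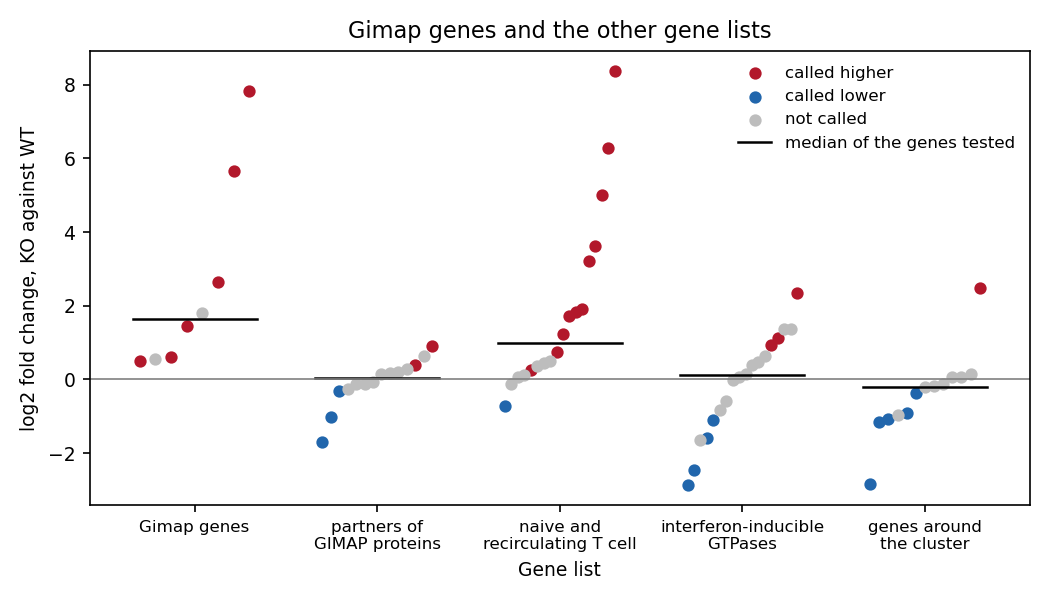
log2 fold change of KO against WT (vertical axis) of each tested gene, grouped by list (horizontal axis) and sorted within it, red where called higher, blue where called lower and grey where not called, with a line at each list's median. The medians are 1.63 for the Gimap genes, 0.03 for the partners, 0.99 for the naive and recirculating T-cell genes, 0.11 for the interferon-inducible GTPases and -0.20 for the genes around the cluster.

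The genes whose pattern over the 6 libraries was most like the family's mean were found by distance. The distance was the root mean square difference between a gene's log2 CPM and the mean of the 8 members, each relative to its own WT mean, over 9960 candidate genes. This mean was 1.66 in KO 1 and 3.03 in KO 2. Single members ranged widely around it, in KO 1 from a log2 ratio of 0.14 for Gimap1 to 7.54 for Gimap4. A gene close to the mean is therefore not close to each member. Itgb2, the β chain of the leukocyte integrins, was closest (distance 0.15), with 27.8 to 34.2 CPM in WT mice, 114 in KO 1 and 229 in KO 2. Tes, a protein of focal adhesions, followed (distance 0.16), with 14.0 to 16.4 CPM in WT mice, 60.4 in KO 1 and 117 in KO 2. Pdzd2 (distance 0.18), Oas3 (0.21) and Cmpk2 (0.23) were next. Oas3 and Cmpk2, both known to be induced by interferon, held 34.6 and 14.9 CPM in KO 1, below the 118 and 55.7 CPM of KO 2. The genes were chosen by this likeness, so their order of KO 1 and KO 2 follows from the choice, and the measure describes these 6 libraries only.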

How the data were processed

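RNA of sorted DN3 thymocytes was sequenced in 6 libraries, 4 WT and 2 KO. The deposited tables give raw counts by Entrez identifier, and the submitters' processing notes name featureCounts and mm10. The sources used here give no aligner, version or strand setting. The deposited tables also hold a length for each gene, per the file headers, in bases. Symbols and coordinates came from a RefSeq table of GRCm38.p6 (25275 of 26332 identifiers matched). Genes were kept by filterByExpr (minimum count 10), which left 13294, scaled by TMM and tested with edgeR 4.0.16 (R 4.3.3, robust quasi-likelihood F-test across all genes, Benjamini-Hochberg adjustment) with sex as an additive term and 3 residual degrees of freedom. CPM and RPKM were computed from these counts and effective library sizes. A second model added the genotype by sex interaction. Alternatives were other scaling, no filter, DESeq2 1.42.0 and limma-voom with quality weights per genotype (limma 3.58.1), called limma-voom below. Further alternatives were no sex term, the replicate number as a block, each library left out, and no sex term with 1 KO library left out. mm10 is another name of the GRCm38 assembly. The CPM given for 3 counts covers counting error only. The level of 1 gene of the B-cell marker list is not reported here by itself. The scripts were tested on simulated counts. Each mouse gave 1 library, so p-values of the main fit measure the spread between mice of this set beyond the sex term. Those of the interaction, and of the fits without WT 4, KO 1 or KO 2, rest on the spread of the WT females alone.

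The members and lists were chosen with earlier results of these data known, and the motif letters after the expression values were seen. Named genes were all members, Tcf7, every tested gene around the cluster, the 4 called genes with the largest log2 change in each of the 3 lists, and the 5 genes closest in pattern that reached 5 CPM in the higher group and had no clone, pseudogene or small RNA name.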

Additional observations from a re-analysis of the deposited data

Results flagged for a closer look

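In 4 of the 39 named genes, 1 WT library stood apart from the other 3 by Dixon's criterion, which flags about 1 in 20 groups by chance. Gimap3 was at 0.531 CPM in WT mice 1, against 0.316 to 0.345 in the others, a difference of a few counts. Gm5111 was at 51.3 CPM in WT mice 4 (40.7 to 42.2 in the others), Repin1 at 156 CPM in WT mice 4 (128 to 131) and Igf2bp3 at 10.5 CPM in WT mice 4 (39.8 to 42.9).

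The effect of genotype differed between the sexes for all 8 members by the interaction term, which cannot be told apart from a difference between the 2 KO mice. The log2 difference of the effect in males less that in females was -4.30 for Gimap3 (edgeR adjusted p = 2.26e-05), -2.43 for Gimap7 (2.43e-08), -1.82 for Gimap8 (4.00e-12), -1.40 for Gimap6 (3.43e-16), -0.72 for Gimap1 (6.57e-10), -0.50 for Gimap9 (9.54e-06) and -0.44 for Gimap5 (0.0114). Gimap4 went the other way, at 0.87 (0.0418), with WT 4, the only WT male, at 0.492 CPM. This test rests on 2 residual degrees of freedom, all from the WT females, and it passed for 54.7% of all genes.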

How the results depend on the processing

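Every alternative left each of the 8 members higher in KO (120 pairs of member and alternative), and 93 kept their side of the threshold, 18 lost the call and 9 gained it. The calls of Gimap4 and Gimap8 held throughout. Fits that rest on 1 KO library are among the alternatives, and no spread between KO mice enters their calls. Of the 8 members, 4 were called with limma-voom, weighted per genotype, 8 with DESeq2 and 2 with the replicate number as a block. Without WT 1, WT 2 or WT 3, 2 to 3 members were called. Those fits called 0 genes around the cluster higher and 3 lower, and 0 partners higher and 1 lower. They called 9 naive T-cell genes higher and 1 lower, and 1 interferon-inducible GTPase higher and 4 lower. Library size alone and limma-voom called 0 genes around the cluster higher. limma-voom called 3 of them lower, 1 partner higher, 1 partner lower and 1 GTPase higher. Without the sex term these last 3 counts were 1, 1 and 1. Fits without the sex term and 1 KO library were chosen after seeing the data. Their counts are listed only as a record, and nothing is read from them. These fits each rest on 1 KO mouse and called more of all genes, higher and lower, than the main fit. Without KO 1 they called 4 partners and 11 GTPases higher, and without KO 2 they called 7 partners, 6 naive T-cell genes and 12 GTPases lower and 1 GTPase higher. Over all genes, 4076 were called, 5261 with DESeq2, 3877 with no filter, 1500 with limma-voom, and 1665 to 9473 when 1 library was left out. The replicate numbers mark no shared animal, and same-numbered deviations correlated at -0.11 and 0.03. The block called 748 genes in all, 2 around the cluster lower, 0 partners higher and 1 lower, 0 naive T-cell genes lower and 0 GTPases higher. The interaction was called for 6 to 8 members. The 6 reversed values were near 0 and not called: Krba1 at -0.0093 without KO 2 (range -0.0093 to 0.1414), AI854703 at -0.1825 without WT 4, -0.1666 without KO 1 (range -0.1825 to 0.4049) and -0.1271 without sex and KO 1, and, without sex and KO 2, Zfp862-ps at -0.0459 and Malsu1 at 0.0048. The causes were not tested. With 2 KO mice, Gimap3 rests on 8 to 22 counts in each WT library.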
